A study of Mus musculus with 4 samples.

Results

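The iron handling and hepcidin genes were described in the middle ear of mice exposed to diesel exhaust particles (DEPs). The group holds 10 genes, Hamp, Hamp2, Slc40a1, Slc11a2, Ftl1, Fth1, Trf, Cp, Hpx and Hp, out of 25694 genes tested, and it is measured by 14 of 39429 probes. They were chosen by name and partly selected on the Hamp signal, which was seen mainly in the red channel of these same arrays, so their ratios are given as a description without a test. Total RNA of dissected ears was compared on 4 two-colour 4x44K arrays. On each array the source names give the red dye, Cy5, to the ear of a DEP-treated mouse (treatment DEP) and the green dye, Cy3, to a control ear (treatment none). According to the methods, the animals were male BALB/c mice, exposure by inhalation lasted 1 h daily for 5 days, and tissue was taken on day 14. The arrays are labelled as biological replicates, but the number of mice behind an extract is not given, and the spread between arrays may be partly technical.

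All arrays had the same dye orientation, and a transcript's preference for a dye therefore cannot be told apart from exposure. In the labels both treatments stand under Cy5 and no treatment stands under Cy3, and the source names were followed. Every ratio below is a log2 ratio of Cy5 (labelled DEP) over Cy3 (labelled control), and for most of the genes that the study names as altered, though not for Lrp1, Cd4 and Fgf8, its direction is the opposite of the one obtained here. Which channel holds which extract is known from the labels alone, and every sign below would turn if the extracts had been exchanged. The arrays shared 1 slide and 1 scan, so no batch could be tested. In extracts of a whole tissue, fewer cells of a type and less RNA per cell cannot be told apart.

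Hepcidin is a small peptide hormone, made mainly by hepatocytes, that holds back the release of iron into the blood. It binds ferroportin, the exporter in the membrane of macrophages and of the absorbing cells of the gut, and causes its degradation. Iron that enters a cell is stored in ferritin, and iron in the blood is carried by transferrin. Ceruloplasmin oxidises iron so that transferrin can bind it, while haptoglobin and hemopexin bind free haemoglobin and free haem. The hepcidin gene is switched on by iron through bone morphogenetic protein (BMP) signals and by inflammation through interleukin-6 and STAT3, and several of the plasma carriers belong to the acute phase proteins.

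The mouse has 2 hepcidin genes, Hamp and Hamp2, which lie side by side on chromosome 7 with 0 protein-coding genes between them. Their probes gave unlike ratios, so the sequences before their start sites are shown. The windows are the 250 bases before the start of each gene in RefSeq (assembly GRCm38.p6), both on the minus strand, at chr7:30944030-30944279 for Hamp and chr7:30924182-30924431 for Hamp2. Capitals mark the searched motifs GGCGCC, the core of a BMP response element, and TTCNNNGAA, the core bound by STAT factors. Each motif reads the same on both strands, and the matches do not overlap.
Hamp: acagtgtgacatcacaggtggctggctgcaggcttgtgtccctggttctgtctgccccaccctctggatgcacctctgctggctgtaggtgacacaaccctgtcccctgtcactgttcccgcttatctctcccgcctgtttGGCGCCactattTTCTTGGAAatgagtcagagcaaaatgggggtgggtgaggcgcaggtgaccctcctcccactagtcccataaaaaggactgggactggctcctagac
Hamp2: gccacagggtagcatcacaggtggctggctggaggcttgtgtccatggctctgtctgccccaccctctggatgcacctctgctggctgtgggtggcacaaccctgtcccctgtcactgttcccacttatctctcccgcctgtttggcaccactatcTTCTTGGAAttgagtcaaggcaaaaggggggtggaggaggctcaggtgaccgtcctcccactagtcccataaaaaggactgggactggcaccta

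GGCGCC lay 109 bases and TTCTTGGAA 97 bases before the start of Hamp. The window of Hamp2 held TTCTTGGAA 94 bases before the start and no GGCGCC. When the windows were aligned, 227 of 247 aligned bases were identical (91.9%), with 20 mismatches and 6 gap positions. Among 32851 promoter windows of the same length, 9.59% held GGCGCC and 7.02% held TTCNNNGAA. Windows were given for 6 of the 10 genes, and those of Ftl1, Fth1, Cp and Hpx held neither motif. These matches describe letters in a window and are not measured binding sites.

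Hamp averaged a log2 ratio of 2.06 ± 0.50 (SD, n = 4 arrays), and it alone among the 10 genes had a mean ratio past 2-fold. Ratios of 2.57, 1.37, 2.15 and 2.16 were obtained on arrays 1 to 4 with its only probe (A_52_P669922), all of them above 0. Over all genes tested, 2.37% exceeded 2-fold in this direction and 4.37% in the other. The sizes of the Hamp ratios were not measured, because the control channel was on no array called well above background by the image software.

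In the channel labelled DEP the dye-normalized signal of Hamp was 70.6, 57.6, 36.4 and 32.7 on arrays 1 to 4, well above background on all 4. In the channel labelled control it was 11.9, 22.2, 8.17 and 7.28, and well above background on none. The software marked the control signal as positive and significant on arrays 1 and 2 only. Every Cy5 signal was above every Cy3 signal, but the gene was selected on this and nothing is read from it. The lowest signal of any spot well above background in Cy3 was 23.3, 20.8, 36.5 and 33.2 on arrays 1 to 4. Hamp in Cy5 was 3.04, 2.59, 0.996 and 0.983 times that limit, so it exceeded the limit on arrays 1 and 2 and equalled it within 2% on the others. From the mean signals of each channel after normalization between arrays, the lower limit planned for such a probe came to 1.67-fold. It was not kept as a bound, since 2 of the arrays lay at the limit.

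With only the local background taken off, before the software's further processing, the values of the channels were nearer to each other. The median spot signal of Hamp minus its local background was 60, 68, 54 and 44 in Cy5 and 49.5, 65.5, 48 and 52.5 in Cy3. It was higher in Cy5 on 3 of 4 arrays. On the same scale, the medians of the 153 negative control spots of an array were 6 to 7.5 in Cy5 and 37 to 42 in Cy3. The controls thus stood higher in Cy3, so neither the nearness of the channels nor a direction is read from this scale. With another background correction (normexp) the mean log2 ratio was 0.43 after loess normalization and 0.28 after centring each array on its median, below 2-fold in both cases. This correction adds an offset of 50 to both channels, which by itself draws the ratio of a probe this dim toward 0. The smaller means therefore cannot tell whether the Hamp ratio was too high.

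**Figure D1:**
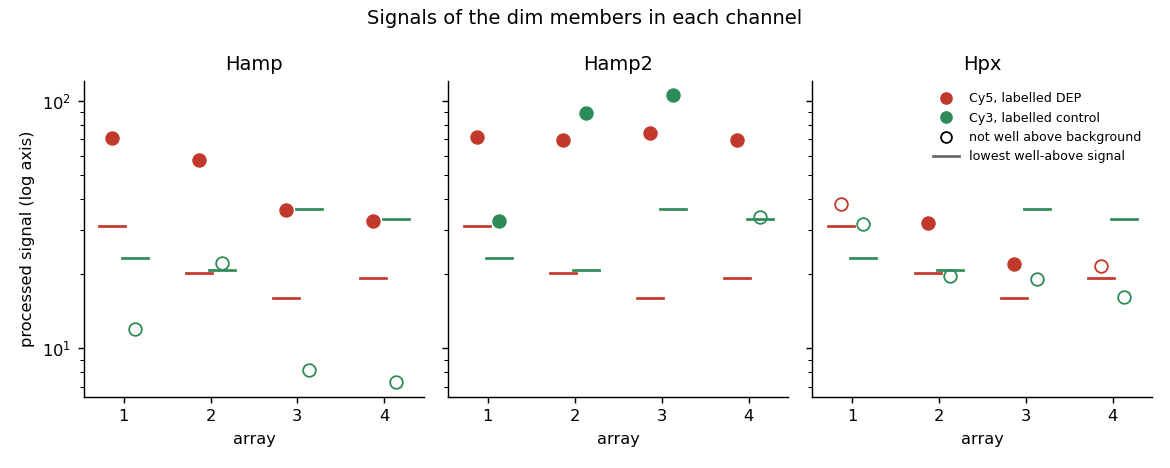
Dye-normalized processed signals (log axis) of Hamp, Hamp2 and Hpx on arrays 1 to 4 in Cy5, labelled DEP, and Cy3, labelled control. Filled points are well above background, open points are not, and the short lines give the lowest well-above-background signal of each channel and array; Hamp in Cy3 is open on all 4 arrays.

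Hamp was 1 of 64 genes that were well above background in Cy5 on all arrays and in Cy3 on none, while 0 genes had the reverse form. The limits of the channels were unequal. The lowest well-above-background signal on arrays 1 to 4 was 31.1, 20.2, 16.0 and 19.2 in Cy5. In Cy3 it was 23.3, 20.8, 36.5 and 33.2. On arrays 3 and 4 a dim gene of equal signal could pass in Cy5 alone, so nothing is read from 64 against 0. The median of the mean log2 ratios of the 64 genes was 1.1 (5th to 95th percentile 0.34 to 1.99), and 37 of them were past 2-fold. Ratios above 0 follow from how the genes were picked, and as for Hamp the sizes were not measured, so nothing is read from these values.

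**Figure D2:**
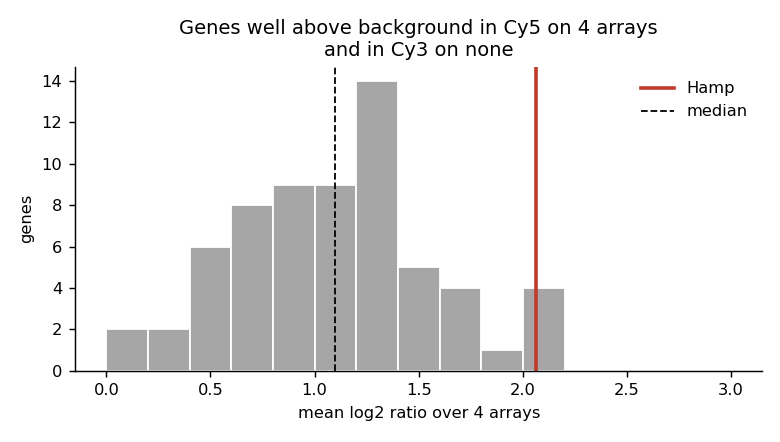
Mean log2 ratio over 4 arrays (x axis) of the 64 genes well above background in Cy5 on all arrays and in Cy3 on none, as numbers of genes (y axis). The dashed line is their median of 1.1 and the red line is Hamp at 2.06; the control side of these ratios was not well above background, so their sizes were not measured.

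Of these genes, Pigw, which encodes an enzyme of the glycosylphosphatidylinositol anchor pathway, had the listed ratios closest to Hamp over the 4 arrays. The control side of both was not measured, so likeness here describes the listed values only. The root mean square distance of its ratios from those of Hamp was 0.25 on the log2 scale. Its ratios were 2.36, 1.29, 2.13 and 2.61. The next in likeness were the unnamed probes A_55_P1964585, A_55_P2146655 and A_55_P2163749 at distances of 0.46, 0.49 and 0.61, and the olfactory receptor gene Olfr434 at 0.61.

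Hepatocyte markers were measured unevenly. Of the 15 such markers on the array, Alb, Apoa1, Apob, F2 and Fabp1 never passed background in either channel. Apoa2, Serpina1a, Rbp4, Cyp2e1, Tat and Ttr were measured in full, that is, well above background in Cy5 and Cy3 on every array, and Cyp2e1, a cytochrome P450 that other tissues also express, was the brightest. The median log2 ratio of the 11 markers tested was 0.20, 0.26, 0.01 and 0.55 on arrays 1 to 4, and 9 of 11 were above 0 on average, where 54.2% of all genes were. Over the 6 measured in full the medians were 0.02, 0.15, -0.11 and 0.25, and the median of their means was 0.05. The 2 markers below 0 were both measured in full. Ttr had -4.37, -4.25, 0.49 and 1.04, with a mean of -1.77 ± 2.94 (SD, n = 4). Apoa2 had a mean of -0.14 and was below 0 on 4 of 4 arrays. An unadjusted p under 0.05 was found for 3 of the 11, Apoh, Apoc3 and Cps1, against 18.7% of all genes, and an adjusted one for 0. These 3 were above 0 on 4 of 4 arrays, with means of 1.20 for Apoh, 0.52 for Apoc3 and 0.49 for Cps1, but like Hamp they had no control signal well above background. Their signal passed background in Cy5 on 1 array for Apoh, 2 for Apoc3 and 1 for Cps1. The summed signal of the 11 markers ranged from 20505 to 34243 in the channel labelled DEP and from 11606 to 43792 in the channel labelled control, ranges that overlap. Their part in the Hamp signal was not tested.

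Hamp2, the second hepcidin gene, did not share the pattern of Hamp. The ratios of its probe (A_52_P21486) were 1.13, -0.36, -0.51 and 1.04, with a mean of 0.33 ± 0.88 (SD, n = 4). Arrays 1 and 4 were above 0 and arrays 2 and 3 below it. The dye-normalized signal was 71.7, 69.6, 74.1 and 69.7 in Cy5 and 32.9, 89.3, 105 and 33.8 in Cy3, and the latter was well above background on 3 arrays and not on array 4. Before normalization, the signal minus local background was 59, 88, 80 and 77.5 in Cy5 and 65.5, 109.5, 104 and 65 in Cy3. Array 1 was then low in both channels, and arrays 2 and 3 were high in both. The mean ratio was 0.07 after normexp and loess and 0.02 after normexp and median centring. Probe sequences were not used here, and whether the Hamp and Hamp2 probes detect each other's transcript was not tested.

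The exporter and the importer of iron were both measured in Cy5 and Cy3 throughout. Slc40a1, which encodes ferroportin, had log2 ratios of 0.03, 0.23, 0.88 and 0.86 on arrays 1 to 4, with a mean of 0.50 ± 0.43 (SD, n = 4), below 2-fold. It was measured in full. Its signal in the channel labelled DEP was 3468, 3092, 2894 and 3342, and its signal in the channel labelled control was 3408, 2635, 1578 and 1844. Ferroportin was thus above 0 on all 4 arrays, with arrays 3 and 4 high and array 1 close to 0. The signals of the channels overlapped, and the control channel spread over 2.16-fold against 1.20-fold in the channel labelled DEP. The mean was 0.43 after normexp and loess and 0.84 after normexp and median centring.

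Slc11a2 encodes the divalent metal transporter DMT1, which brings iron across the gut wall and out of endosomes. Its brighter probe (A_51_P388737) had ratios of -0.01, 0.20, -0.06 and -0.05, with a mean of 0.02 ± 0.12 (SD, n = 4), the smallest spread of the 10 genes. The signals were 770, 676, 512 and 557 in Cy5 and 776, 588, 535 and 578 in Cy3. The dimmer probe (A_52_P254298) had ratios of 0.26, 0.17, 0.02 and -0.46. The probes differed by 0.04 to 0.40 and had the same sign on 2 of 4 arrays.

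Both ferritin chains were bright and lay close to 0 on average. Fth1, the heavy chain that oxidises iron as it is stored, had ratios of -0.69, 0.12, 0.28 and 0.65, with a mean of 0.09 ± 0.57 (SD, n = 4). Its Cy5 signal was 97511, 95733, 94830 and 109106, and its Cy3 signal was 157410, 88292, 77919 and 69411. Array 1 was low and array 4 high, and the Cy5 signal varied 1.15-fold against 2.27-fold for the Cy3 signal. With array 1, 2, 3 or 4 left out the mean was 0.35, 0.08, 0.03 or -0.10.

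Ftl1, the light chain of ferritin, had ratios of -0.55, 0.11, -0.09 and 0.35 with its brighter probe (A_55_P1968245), with a mean of -0.04 ± 0.38 (SD, n = 4). The other probe (A_55_P1983959) gave -0.61, -0.07, 0.02 and 0.37, within 0.18 of the first on every array. As for the heavy chain, array 1 was the lowest and array 4 the highest. The signals of the brighter probe were 47381, 54789, 41309 and 61149 in Cy5 and 69203, 50919, 43851 and 48035 in Cy3, and they overlapped. The mean changed sign to 0.01 after normexp and loess and to 0.80 after normexp and median centring, and Fth1 was 0.18 and 1.08 in these, the last of them past 2-fold.

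Trf, which encodes transferrin, was below 0 on array 1 only. Its brighter probe (A_55_P2037584) had ratios of -0.83, 0.37, 0.19 and 0.28. The other probe (A_55_P2037585) gave -0.88, 0.23, 0.15 and 0.25, with the same sign on 4 of 4 arrays and a difference of at most 0.14. Array 1 thus stood apart in both, and it set the mean of 0.0042 ± 0.56 (SD, n = 4) for the brighter probe. The Cy5 signal was 19223, 26719, 23647 and 23901, and the Cy3 signal was 34172, 20679, 20700 and 19617. The control channel of array 1 was the highest of the 8 signals. Without array 1 the mean was 0.28 ± 0.09 (SD, n = 3).

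Cp, which encodes the ferroxidase ceruloplasmin, had ratios of -0.46, -0.01, -0.29 and 0.13 with its brighter probe (A_55_P2111302), with a mean of -0.16 ± 0.27 (SD, n = 4). Its signals were 4386, 5224, 4338 and 5424 in Cy5 and 6041, 5271, 5317 and 4972 in Cy3. A second probe (A_55_P2087607), for the transcript NM_001276248, gave -0.20, 0.25, 0.12 and 0.33. The second probe was higher on every array, by 0.21 to 0.41, so the probes of Cp disagreed in sign on 2 of 4 arrays.

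Hp encodes haptoglobin, which binds free haemoglobin. Its ratios were -0.49, -0.09, -0.32 and 0.32, with a mean of -0.14 ± 0.35 (SD, n = 4). The Cy5 signal was 22493, 26326, 22396 and 22968, and the Cy3 signal was 31599, 27950, 27931 and 18409. Only array 4 was above 0, and it had the lowest control signal. Under normexp and median centring the means changed sign to 0.54 for Hp and 0.32 for Cp.

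Hpx encodes hemopexin, which binds free haem. It was near background, well above it on arrays 2 and 3 in Cy5 and on 0 arrays in Cy3, so no fold is given. Its signals were 38.4, 32.1, 22 and 21.5 in Cy5 and 31.7, 19.5, 19.1 and 16.1 in Cy3. The ratios were 0.28, 0.71, 0.20 and 0.41, all above 0, and their mean of 0.40 changed to -0.069 after normexp and median centring. Before normalization, the signal minus local background was 41.5, 42, 35 and 24 in Cy5 and 67, 52, 60 and 49 in Cy3, and the software marked both channels as positive and significant on all 4 arrays. On that scale Cy3 was the higher channel, but the negative controls also stood at 37 to 42 in Cy3 and at 6 to 7.5 in Cy5, so no direction is read from it.

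**Figure D3:**
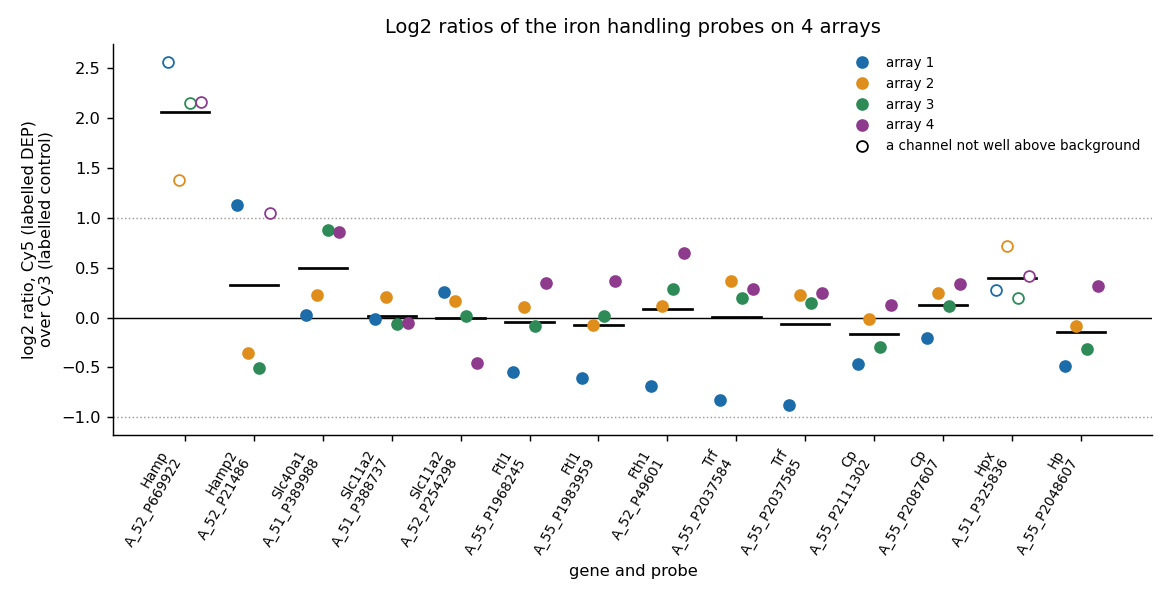
Log2 ratio (y axis, Cy5 labelled DEP over Cy3 labelled control) of each of the 14 probes on arrays 1 to 4, with black bars for the mean and dotted lines at 2-fold. Open points have a channel that is not well above background; Hamp lies between 1.37 and 2.57, and the ferritin and transferrin probes are lowest on array 1.

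Among the 10 genes, 3 were above 0 on all 4 arrays (Hamp, Slc40a1 and Hpx), 0 were below 0 on all 4, and 7 had both signs. Of all genes tested, 16.2% were above 0 on all 4 arrays and 10.9% below. Without array 1, 5 of the 10 genes were above 0 on every remaining array, against 26.5% of all genes. Without array 2, 3 or 4 the count was 3, against 18.6%, 20.0% and 25.0% of all genes in that order. These counts include Hamp, which was selected on its Cy5 signal, and Hpx, whose control signal was not measured. The median of the mean ratios was 0.05 over the 10 genes and 0.03 over all genes, where the median SD between arrays was 0.34.

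The ratios of these genes varied from array to array. For the 7 genes measured in full, the median ratio was -0.49, 0.12, -0.06 and 0.32 on arrays 1 to 4. For 6 of the 7 the lowest ratio was that of array 1, and for 4 the highest was that of array 4. The share of all genes with these orders was not counted, so nothing particular to these genes is read from them. Array 1 also had the lowest median in many of the marker lists below. The median over all genes was -0.02, 0.08, 0.03 and 0.04 on the same arrays.

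Marker genes of other cell types moved with these arrays, and their part in the ratios was not tested. Oligodendrocytes and the choroid plexus are known to make transferrin. The 11 oligodendrocyte markers tested had median ratios of -1.41, -0.33, -0.26 and 0.20, and 10 of 11 were below 0 on average, where 45.8% of all genes were. Their summed signal was 20688 to 23286 in Cy5 and 24610 to 94723 in Cy3. The 9 choroid plexus markers had medians of -1.09, -0.72, 0.12 and 0.17, with 7 of 9 below 0 (45.8% of all genes) and sums of 28444 to 32126 in Cy5 and 23615 to 54969 in Cy3. The erythroid markers, 11 in number with Hba-a1 the brightest, had medians of -0.79, 0.25, 0.39 and 0.26 and sums of 415347 to 472771 in Cy5 and 280643 to 696269 in Cy3. In all 3 lists array 1 was the lowest, as it was for Trf, Fth1 and Ftl1. This was not particular to these 3 lists. Array 1 also had the lowest median for neurons, astrocytes, Schwann cells, macrophages, neutrophils, bone, skeletal muscle and cardiac muscle. On array 2 the choroid plexus median was -0.72, where Trf had 0.37. None of the oligodendrocyte, choroid plexus and erythroid markers was below background in both channels on all arrays.

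Macrophages that recycle red cells express ferroportin. The 10 macrophage markers tested, with Csf1r the brightest, had medians of -0.31, 0.02, 0.58 and 0.81, with 9 of 10 above 0 on average (54.2% of all genes). Their summed signal was 21785 to 27308 in Cy5 and 17218 to 30229 in Cy3, and none was below background in both channels on all arrays. Of the markers, Spic, the transcription factor of iron-recycling macrophages, had ratios of -0.79, -0.01, 0.92 and 1.1, Vsig4 had -0.31, 0.17, 1.04 and 1.25, and Cd5l had -0.70, 0.26, 1.6 and 1.54. Hmox1, the enzyme that breaks down haem, had 0.09, 0.08, 1.1 and 1.03. These 4 genes were singled out after their values were seen because they were higher on arrays 3 and 4 than on arrays 1 and 2, as Slc40a1 was. The same held for 7 of the 10 macrophage markers, against 23.9% of all genes tested, and not for Adgre1, Csf1r and Marco. Adgre1 had 0.71, 0.06, 0.62 and 0.73, Csf1r had -0.09, 0.15, 0.11 and 0.64, and Marco had 0.77, 0.69, 0.53 and 1.01. Being higher on arrays 3 and 4 than on arrays 1 and 2 was not particular to macrophages. The medians of the skeletal muscle, neutrophil, neuron, astrocyte, oligodendrocyte, choroid plexus, erythroid and cardiac muscle lists had that order too. For skeletal muscle they were -0.84, -0.54, 0.74 and 0.79.

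**Figure D4:**
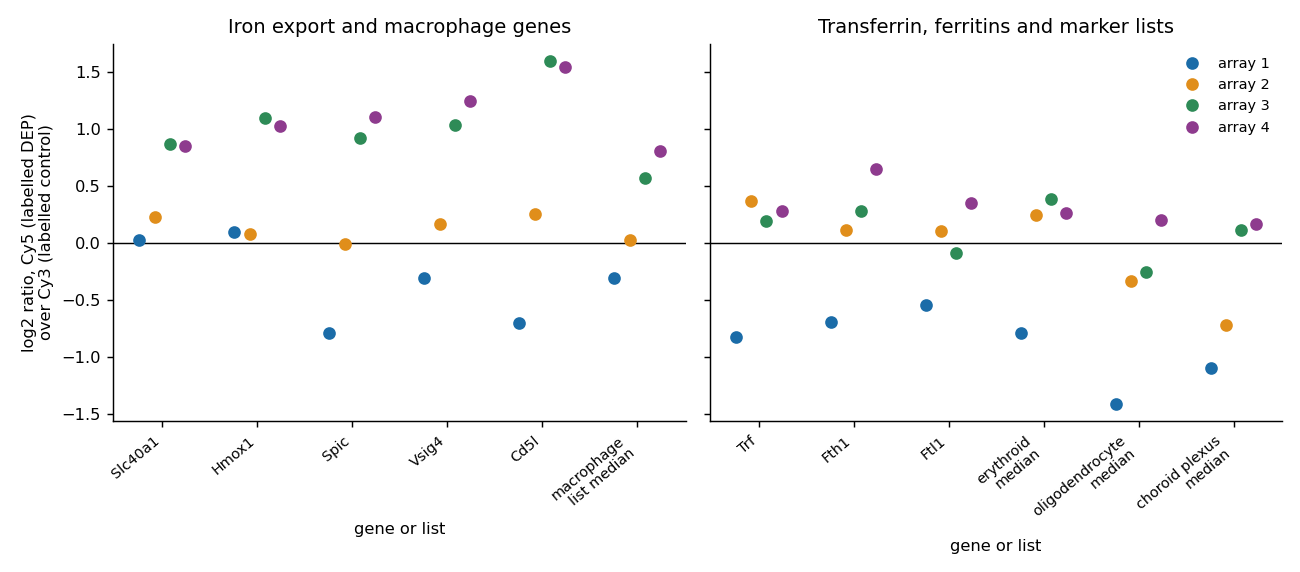
Log2 ratio (y axis) on arrays 1 to 4 of Slc40a1 beside Hmox1, 3 macrophage markers and the macrophage list median (left), and of Trf, Fth1 and Ftl1 beside the medians of the erythroid, oligodendrocyte and choroid plexus lists (right). Arrays 3 and 4 are high on the left, and array 1 is lowest for every item on the right. The medians of other marker lists, not drawn, show the same orders.

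The remaining marker lists were spread over the arrays as well. Neurons, with Snap25 the brightest, had medians of -2.40, -1.47, -0.49 and 0.33, and astrocytes, with S100b the brightest, had -2.37, -0.85, -0.07 and 0.12. Skeletal muscle (Myh4) had -0.84, -0.54, 0.74 and 0.79, and neutrophils and their precursors (S100a9) had -0.78, 0.08, 0.67 and 0.29. Airway-type epithelium, led by Bpifa1, had -0.22, 0.56, -0.26 and -0.43, and all 12 of its markers were measured in full. Schwann cells (Pmp22) had -0.45, 0.17, 0.16 and 0.37, bone (Col1a2) had -0.46, 0.22, -0.10 and 0.68, and adipocytes (Fabp4) had -0.06, 0.42, -0.20 and 0.77. Cardiac muscle (Actc1) had -0.30, -0.20, -0.03 and 0.06, and its marker Myl7 was below background throughout.

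The genes around the hepcidin-ferroportin axis were taken from 5 lists, and 84 of them were tested. Their median log2 ratio was 0.06. By mean ratio none was past 2-fold higher, and 2 were past 2-fold lower, the acute phase genes Itih3 and Crp, of which Crp was above background in neither channel and has no measured fold. After Benjamini-Hochberg adjustment of limma's moderated test, 0 of the 84 had an adjusted p under 0.05, as had 0 of all genes (0%), and 0 of the 84 had one without moderation of the variance. In limma's test the smallest adjusted p of the 84 was 0.145. At an unadjusted p under 0.05 there were 11 of them, against 18.7% of all genes tested.

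Genes that control hepcidin did not pass the test. Of 22 such genes 16 were above 0 and 6 below, with a median of 0.15, where 54.2% of all genes tested had a mean above 0, and 3 had an unadjusted p under 0.05 while 0 passed after adjustment. These 3 were the BMP receptor Bmpr1a at 0.42 ± 0.17 (SD, n = 4; limma adjusted p = 0.189), the activin receptor Acvr2a at 0.46 ± 0.37 (limma adjusted p = 0.263) and the shared signal transducer Smad4 at 0.36 ± 0.18 (limma adjusted p = 0.234), each above 0 on 4 of 4 arrays. Bmp6, the main BMP that reports iron stores, had ratios of -0.21, 0.66, 0.29 and 0.69. Tmprss6, the protease that restrains hepcidin, had -0.52, 0.27, -0.08 and -1.21. Il6, the cytokine that induces hepcidin in inflammation, passed background on 2 arrays in Cy5 and on 0 in Cy3, and Erfe, the erythroid hormone that lowers hepcidin, passed it on none. Stat3 lay at -0.03 ± 0.32 (SD, n = 4).

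The 19 genes of iron uptake, oxidation and export had a median of -0.05, with 8 above 0 (54.2% of all genes) and 11 below. Heph, the membrane ferroxidase that works with ferroportin, had ratios of 1.34, 0.47, 0.56 and 0.18, with a mean of 0.64 ± 0.50 (SD, n = 4; limma adjusted p = 0.236). Mcoln1, a channel that releases iron from lysosomes, had -0.59, -0.62, -0.48 and -0.25, with a mean of -0.49 ± 0.17 (SD, n = 4; limma adjusted p = 0.165). These 2 genes had the same sign on all arrays and were the only ones of the list with an unadjusted p under 0.05. Tfrc, the receptor that takes up transferrin, had -0.30, 0.38, 0.44 and 0.16, so that array 1 was again the lowest. The iron-binding protein of neutrophil granules and secretions, Ltf, had -0.65 ± 0.61, and Lcn2, which binds bacterial iron carriers, had 0.29 ± 0.60. Hephl1 and Ftmt were not above background.

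Among 13 genes of haem and haemoglobin handling, 10 were above 0 (54.2% of all genes) and 3 below, with a median of 0.04 and 0 genes at an unadjusted p under 0.05. Hmox1 had a mean of 0.58 ± 0.56 (SD, n = 4), and the haem-related transporter Flvcr2 had 0.62 ± 0.98. Cd163, the receptor for haptoglobin bound to haemoglobin, was near background, and Lrp1, the receptor for hemopexin bound to haem, had -0.26 ± 0.21. The 12 genes of iron sensing and iron-sulphur assembly had a median of 0.02, with 7 above 0 (54.2% of all genes), 5 below and 0 at an unadjusted p under 0.05. In this list Aco1, which doubles as an iron sensor, had 0.59 ± 0.64, and Fbxl5, which marks the other sensor for degradation when iron is high, had -0.24 ± 0.11. The genes named from the hepcidin, uptake, haem and sensing lists were picked after their values were seen.

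The acute phase genes were largely dim, since 7 of the 18 tested were measured in full. Their median was 0.09, with 11 above 0 (54.2% of all genes) and 7 below, and 6 had an unadjusted p under 0.05, against 18.7% of all genes, while 0 passed after adjustment. Higher among the 6 were Saa3 at 0.83, Apcs at 0.80, Fga at 0.52 and Fgb at 0.36, and lower were Crp and A2m, the latter at -0.32. None of the 6 was measured in full. Itih3 had ratios of -2.57, -5.54, -0.47 and 1.44, so its mean of -1.78 ± 2.99 (SD, n = 4; limma adjusted p = 0.447) was set by arrays 1 and 2. For Crp, with a mean of -1.70, neither channel was above background on any array, so no fold is given, and Saa2 and Saa3 were not above background either. Saa1, a main acute phase protein of inflammation, was measured in full at -0.08 ± 0.18 (SD, n = 4).

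**Figure D5:**
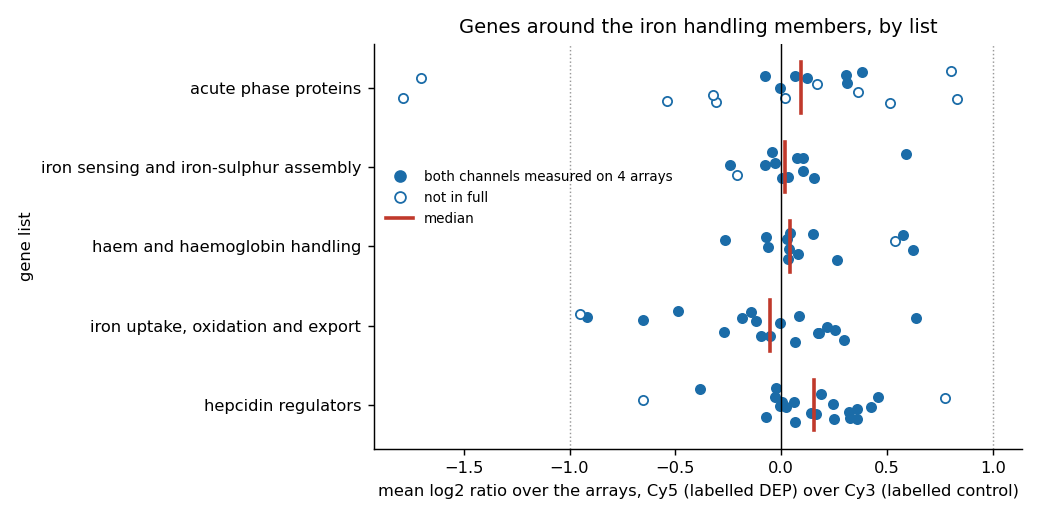
Mean log2 ratio over the arrays (x axis) of each gene of the 5 lists (y axis), with red bars for the list medians and dotted lines at 2-fold. Open points are genes not measured in full; the medians lie between -0.05 and 0.15, and the 2 genes past 2-fold by mean ratio are acute phase genes, 1 of them (Crp) below background throughout.

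The precision is limited by having 4 arrays. Well-above-background spots made up 66.6% to 70.0% of each array in Cy5 and 60.5% to 69.1% in Cy3, and 0 spots were saturated. Over all genes, 610 were past 2-fold higher and 1124 lower, but the split was 79 and 370 with normexp and loess, and 453 and 215 with normexp and median centring. At an unadjusted p under 0.05 there were 4799 genes with limma's moderated test, and the smallest adjusted p was 0.0922.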

How the data were processed

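The authors quantified the arrays with Feature Extraction 10.10.1.1 and deposited 1 scanner file per array, whose intensity columns hold background-subtracted, dye-normalized signals. The deposited log10 ratio (Cy5 over Cy3) was multiplied to the log2 scale. Control spots, flagged outliers and spots lacking a ratio were removed, and 31577 probes with ratios on at least 3 arrays remained. Accessions were named through RefSeq (GRCm38.p6), which matched 27655 of 39429 probes, and a gene was its probe with the highest mean signal. An intercept was fitted with limma 3.58.1 under R 4.3.3 (lmFit and eBayes, prior degrees of freedom 1.98), two-sided, adjusted by Benjamini-Hochberg across every probe tested, and was tested on simulated data.

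The members and lists were chosen with earlier results of these data known. The genes named were all members with their probes, list genes past 2-fold, the brightest and the undetected genes of each marker list (1 of these is not reported here), and the 5 genes most like Hamp, and others were picked after their values were seen. The lower limit of the Hamp fold used signals normalized between arrays (Aquantile). Sequences were aligned with Biopython 1.88. Other analyses used Python 3.11.15, pandas 2.3.3 and numpy 2.4.6. The alternatives were normexp (offset 50) with loess or median centring, centred ratios, the deposited ratio table, filters on dim probes, outlier spots kept, the mean of a gene's probes, other variance estimates, 2-fold on every array and leaving out each array. 0 value columns were left without a sample.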

Additional observations from a re-analysis of the deposited data

Results flagged for a closer look

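Of 42 values tested for a sample far from the others of its 4 arrays (ratios and signals of the 14 probes), 4 stood out, and chance gives about 1 in 20. For transferrin, the log2 ratio on array 1 was -0.83 with one probe (A_55_P2037584) and -0.88 with the other (A_55_P2037585), where the gap to the nearest array made up 0.85 and 0.91 of the whole range. The log2 control signal of the brighter Trf probe on array 1 was 15.06, with a gap of 0.90 of the range. The log2 signal of Hp in the channel labelled DEP was 14.68 on array 2, with a gap of 0.84 of the range.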

How the results depend on the processing

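The test is itself paired, since each ratio compares the 2 channels of 1 array. No paired analysis was possible beyond that, because there is 1 group of arrays. Over all genes, the count past 2-fold higher (610) was 79 after normexp and loess, 316 when at least 1 channel had to pass background on all arrays, 129 when both had to, and 50 with 2-fold on every array. Leaving out 1 array gave 590 to 1097, the highest without replicate 4. The count lower (1124) was 370 after normexp and loess, 215 after normexp and median centring, 543 and 450 with these filters, and 112 with 2-fold on every array. Leaving out 1 array gave 962 to 1623. The 0 genes at an adjusted p under 0.05 became 5106 with normexp and median centring, where the median of all genes was 0.13 in place of 0.03, and stayed at 0 under the other alternatives run.

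Mean log2 ratios moved by more than the SD between arrays for Hamp (0.43) and Hpx (0.11) after normexp and loess. After normexp and median centring this held for Hamp (0.28), Slc11a2 (0.26), Ftl1 (0.80), Fth1 (1.08), Trf (0.74), Cp (0.32), Hpx (-0.069) and Hp (0.54). The list medians became 0.39 for hepcidin regulators, 0.28 for iron uptake, 0.42 for haem handling and 0.35 for iron sensing. The offset of 50 by itself draws the ratios of dim probes such as Hamp and Hpx toward 0, and the cause was otherwise not tested. The other 106 values of the members and 56 of the lists moved by less. The count of members above 0 on every array went from 3 to 5 without replicate 1 and was 3 without any other replicate, alternatives chosen after seeing the data. The sign of Ftl1 changed without replicate 1, that of Fth1 without replicate 4, that of Slc11a2 without replicate 2 and with centred ratios, and that of Trf in these 2, without replicates 3 and 4, and with the mean of its probes. Filters on dim probes left 9 members (without Hpx) or 7 (without Hamp, Hamp2 and Hpx).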
